A study of Homo sapiens with 6 samples.

Results

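The splicing factor genes described here are those whose symbol starts with SRSF, HNRNP, SF3A, SF3B, PRPF or SNRP, and 64 of the 18417 genes measured met this rule. Only probe sets that carry 1 gene symbol were used, and where 2 of them named a gene the one with the higher mean over the 6 arrays stood for it. The 64 genes are 12 SRSF, 20 HNRNP, 3 SF3A, 6 SF3B, 11 PRPF and 12 SNRP genes, 62 of them protein-coding and 2 pseudogenes. RNA was measured in THP-1 cells, a human line grown from a monocytic leukaemia, on single-channel Affymetrix arrays. The PMA group holds 3 arrays of THP-1 cells given 200 nM PMA (phorbol myristate acetate, an activator of protein kinase C) over 3 days, followed by 3 days of rest in its absence. The unstimulated group holds 3 arrays of THP-1 cells with no PMA. Both groups are the same line in the same medium, and the labels do not say whether replicates came from separate cultures, so the p-values cover the spread among these 6 arrays alone, and that spread may be technical.

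Pre-mRNA splicing is carried out by the spliceosome, which assembles on each intron from small nuclear ribonucleoproteins (snRNPs) named U1, U2, U4, U5 and U6. Most of these carry a ring of Sm proteins, encoded by SNRP genes, around a small nuclear RNA. The SF3A and SF3B proteins are parts of the U2 snRNP, which recognises the branch point, and several PRPF proteins belong to the tri-snRNP that brings in the catalytic RNAs. SR proteins, encoded by SRSF genes, mostly bind exons and favour their inclusion, while hnRNP proteins coat nascent RNA and often oppose it, and both kinds shift splicing by their amounts. Many of these genes hold down their own transcripts through unproductive splicing, an effect that a single value per gene does not resolve.

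Array medians lay between 6.10 and 6.25 on the log2 scale and lower quartiles between 4.46 and 4.57. Arrays of the same group correlated at 0.988 to 0.995 (Pearson, every probe set) and arrays of different groups at 0.958 to 0.968. Of 10 macrophage markers, 7 were higher in PMA cells and none lower, and their summed linear signal was 16268 to 19180 on the PMA arrays, against 5594 to 6786 on the unstimulated arrays. All 8 genes of the promonocyte and primary granule list were lower, with summed signals of 1017 to 1188 on PMA arrays and 23006 to 30183 on unstimulated arrays. In lists of other lineages, NCAM1 was called higher among 8 T and NK cell genes, and PDGFRA and PDGFRB among 7 fibroblast genes. CD79A was called lower among 5 B cell genes and KRT18 among 6 epithelial genes. Over all genes tested, 26.4% were called. Summed signals on PMA and unstimulated arrays were 208 to 275 and 169 to 186 for T and NK cells, 285 to 300.2 and 316 to 341 for B cells, 299.954 to 394 and 379 to 516 for epithelium, and 459 to 856 and 306 to 321 for fibroblasts, and the part of such cells in the results was not tested. The unstimulated arrays differed among themselves for the splicing factors. The unstimulated replicate 1 array held the highest value of its group for 41 of the 64 genes (64.1%), against 39.4% of all genes, and its median splicing factor lay 0.16 above the other unstimulated arrays, against 0.01 for the median of all genes. Unstimulated replicate 2 lay the other way, with the lowest value of its group for 46 of the 64 genes. It held the highest for 3 (4.69%, against 29.9% of all genes). Its median difference from the other unstimulated arrays was −0.11 for the splicing factors and −0.01 for all genes. Counts without unstimulated replicate 1 are given beside the counts of all 64 genes, of each family and of the other splicing genes.

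A part of the splicing factor genes fell in PMA-differentiated cells, by modest amounts. Of the 64 genes, 21 fell and none rose at an adjusted p of 0.05 (limma, p-values adjusted by Benjamini-Hochberg across all 18417 genes). Over all genes tested, 26.4% were called, 13.2% lower and 13.2% higher. At an unadjusted p of 0.05 in the same fit, 30 of the 64 were lower and none higher. Of all 18417 genes, 3481 were lower and 3251 higher at that unadjusted threshold. The changes were small: the largest, of SNRPA1, left 62.9% of the unstimulated level, and none reached 2-fold. The median log2 fold change, PMA minus unstimulated, was −0.22 over the 64 genes and −0.03 over all genes. It was below 0 for 57 of the 64 (89.1%), against 55.2% of all genes. Every PMA array lay below every unstimulated array for 33 of the 64 genes and above it for 1, where 22% and 19.2% of all genes did so. Among genes at or above the median level, where 56 of the splicing factors lie, 17 of those 56 fell (30.4%), and the background there was 18% lower and 19.5% higher. Without unstimulated replicate 1, 15 genes fell and the median was −0.17. Without unstimulated replicate 2, 16 genes fell and the median was −0.29. The number that fell was 9 without PMA replicate 1 and 11 without unstimulated replicate 3. In bulk RNA such as this, fewer cells that express a gene and less RNA per cell cannot be told apart.

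**Figure D1:**
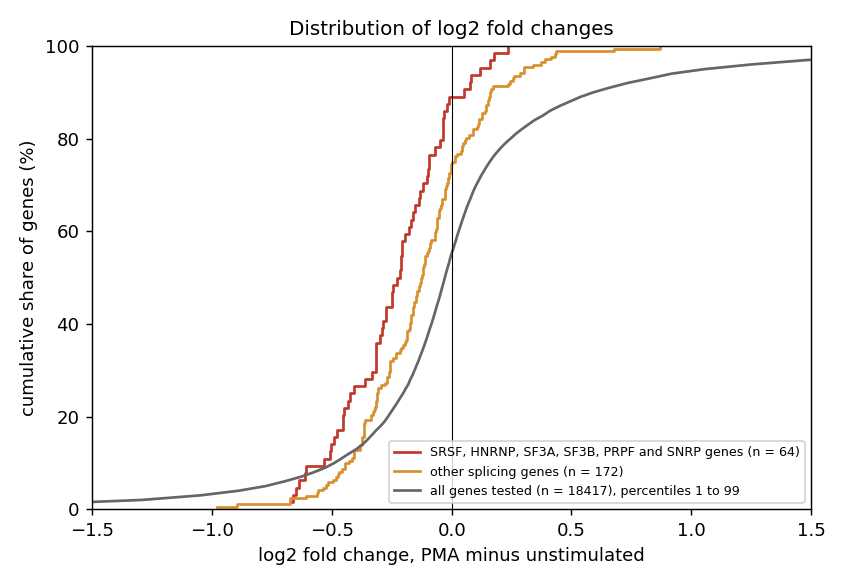
Cumulative share of genes (vertical axis, %) against the log2 fold change, PMA minus unstimulated (horizontal axis), for the 64 splicing factor genes, 172 other splicing genes and all 18417 genes tested. The red curve of the splicing factors lies left of the grey curve of all genes over most of its range, with medians of −0.22 and −0.03, and it ends near 0.24 while the grey curve runs on past 1.5.

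Scaling bears on changes of this size. The median gene shifted by −0.03 in the table as deposited, by 0.02 when quantile normalization was repeated, by 0.04 after cyclic loess and by 0.06 with each array centred on its median. The median of the splicing factors was −0.22, −0.22, −0.17 and −0.14 in the same order, so that it lay 0.19 to 0.25 below the median gene each time. The numbers that fell were 21, 21, 16 and 14, and 1 gene, PRPF40B, rose after cyclic loess. A change below 0 was seen for 57, 55, 51 and 49 of the 64 genes. The shares of all genes called lower were 13.2%, 12.2%, 10.7% and 9.78%. Under all 3 rescalings 14 of the 21 kept their call, and HNRNPA2B1, HNRNPDL, PRPF8, PRPF19, SNRPD1, SRSF3 and SRSF6 lost theirs in at least 1.

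To see what the genes share in sequence, the 250 bases before the transcription start were read from RefSeq (GRCh38.p14) and searched on both strands for 7 short motifs. A promoter was found for 56 of the 64 genes, and 40 had a single start that is the outer end of the gene. The ETS motif CCGGAAG, the core bound by ETS family factors, was present in 16 of these 40 windows (40%), against 13.4% of 9241 windows of all genes tested. The windows of all genes were not matched for level, and most splicing factors lie above the median level. Whether this share is particular to splicing factors was not tested. It was in 4 of the 15 windows of genes that fell and in 12 of the 25 of genes that did not pass. The CCAAT box (CCAAT) was in 45% of the 40 windows and 36.1% of all windows, and the GC box GGGCGG in 52.5% and 58.3%. The shares for the E-box CACGTG (5% and 7.87%), the TATA box TATAAA (10% and 9.52%) and the AP-1 motif TGANTCA (5% and 4.93%) were similar or lower, and the palindromic consensus of NRF1 was in none of the 40 and in 1.69% of all. A match is only a match of letters, not evidence of binding. The 4 windows below belong to the genes that fell and hold the ETS motif, which is in capitals on either strand. They lie at chr15:101295249-101295498 (minus strand) for SNRPA1, chr19:2236574-2236823 (plus strand) for SF3A2, chr14:69766892-69767141 (plus strand) for SRSF5 and chr4:82373992-82374241 (minus strand) for HNRNPD.
SNRPA1: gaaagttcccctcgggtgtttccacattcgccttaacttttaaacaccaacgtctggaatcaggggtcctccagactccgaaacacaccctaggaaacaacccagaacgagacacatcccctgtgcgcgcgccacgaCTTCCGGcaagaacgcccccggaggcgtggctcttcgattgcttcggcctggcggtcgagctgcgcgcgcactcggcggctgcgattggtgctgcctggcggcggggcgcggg
SF3A2: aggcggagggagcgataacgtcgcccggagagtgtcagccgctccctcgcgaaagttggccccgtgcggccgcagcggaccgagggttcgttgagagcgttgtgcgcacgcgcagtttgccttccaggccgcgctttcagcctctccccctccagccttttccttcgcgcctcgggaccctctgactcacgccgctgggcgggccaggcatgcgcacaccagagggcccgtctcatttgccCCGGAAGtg
SRSF5: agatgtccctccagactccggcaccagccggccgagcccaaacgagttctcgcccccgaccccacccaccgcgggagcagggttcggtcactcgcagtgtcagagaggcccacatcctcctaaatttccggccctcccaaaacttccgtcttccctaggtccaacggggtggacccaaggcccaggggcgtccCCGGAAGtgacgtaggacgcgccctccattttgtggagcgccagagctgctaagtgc
HNRNPD: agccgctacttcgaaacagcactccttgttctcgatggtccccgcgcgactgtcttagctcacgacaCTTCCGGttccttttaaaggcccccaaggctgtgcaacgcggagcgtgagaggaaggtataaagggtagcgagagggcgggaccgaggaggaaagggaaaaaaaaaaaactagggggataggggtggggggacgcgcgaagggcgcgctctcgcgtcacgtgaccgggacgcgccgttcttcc
The motif ends 2 bases before the start in SF3A2, 50 bases before it in SRSF5, 106 in SNRPA1 and 176 in HNRNPD.

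In the paragraphs that follow, levels are log2 values on the arrays in replicate order, a change is a log2 fold change (PMA minus unstimulated) with the standard error of the limma fit, and p-values are adjusted over all genes. Levels of different genes are not compared, since each has its own probes. Counts that fell or rose are read against all genes tested, 13.2% lower and 13.2% higher. At or above the median level those shares were 18% and 19.5%.

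Of the 12 SRSF genes 4 fell and none rose, with a median change of −0.29. For 7 of the 12, every PMA array lay below every unstimulated array. The same held for 22% of all genes, and for 2522 of the 9209 at or above the median level. The number that fell was 2 without unstimulated replicate 1 or PMA replicate 2. It was 1 with PMA replicate 1 or unstimulated replicate 3 left out. SRSF5, a stimulator of exon inclusion, was at 9.37, 9.70 and 9.35 on the PMA arrays, against 9.99, 9.90 and 9.99 on the unstimulated arrays. Its change was −0.49 ± 0.12 (adjusted p = 0.0175), so PMA cells held 71.2% of the unstimulated level, and the call was lost without PMA replicate 1 or unstimulated replicate 3. SRSF6, its close relative, stood at 9.63, 9.70 and 9.81 in PMA cells and at 10.18, 9.96 and 10.21 in unstimulated cells, a change of −0.41 ± 0.10 (adjusted p = 0.024) that was lost without either of PMA replicates 1 and 2 or of unstimulated replicates 1 and 3. The groups did not overlap for either gene. SRSF3, one of the smallest SR proteins, which also takes part in mRNA export, gave 9.93, 9.97 and 9.96 on PMA arrays and 10.32, 10.18 and 10.26 on unstimulated arrays. Its change of −0.30 ± 0.09 passed (adjusted p = 0.0367), but without any single array it did not. SRSF12 had the largest change of the family, −0.51 ± 0.11 (adjusted p = 0.00992), with 4.65, 4.42 and 4.65 on PMA arrays against 5.19, 5.06 and 4.99 on unstimulated arrays. Those PMA levels lie near the arrays' lower quartiles, where signal and background are hard to separate, so the size of that change is uncertain.

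The founding members SRSF1 and SRSF2 were separated between groups without passing. SRSF1, first described as the splicing factor ASF/SF2, was at 10.96, 11.04 and 10.76 in PMA cells and at 11.31, 11.14 and 11.26 in unstimulated cells (−0.32 ± 0.11, adjusted p = 0.0673). SRSF2 (SC35) was at 10.21, 10.16 and 10.16 in PMA cells and at 10.76, 10.34 and 10.38 in unstimulated cells (−0.31 ± 0.13, adjusted p = 0.113), with unstimulated replicate 1 above the other 2. SRSF11 also had separate groups (−0.28 ± 0.09, adjusted p = 0.0608). The changes of SRSF4, SRSF7, SRSF8, SRSF9 and SRSF10 lay between −0.18 and 0.08 and their groups overlapped. Of these SRSF8 was the one with a positive value (0.08 ± 0.14, adjusted p = 0.733). SRSF10, a splicing repressor when dephosphorylated, was carried by 2 probe sets, which gave −0.07 ± 0.09 and −0.11 ± 0.09.

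**Figure D2:**
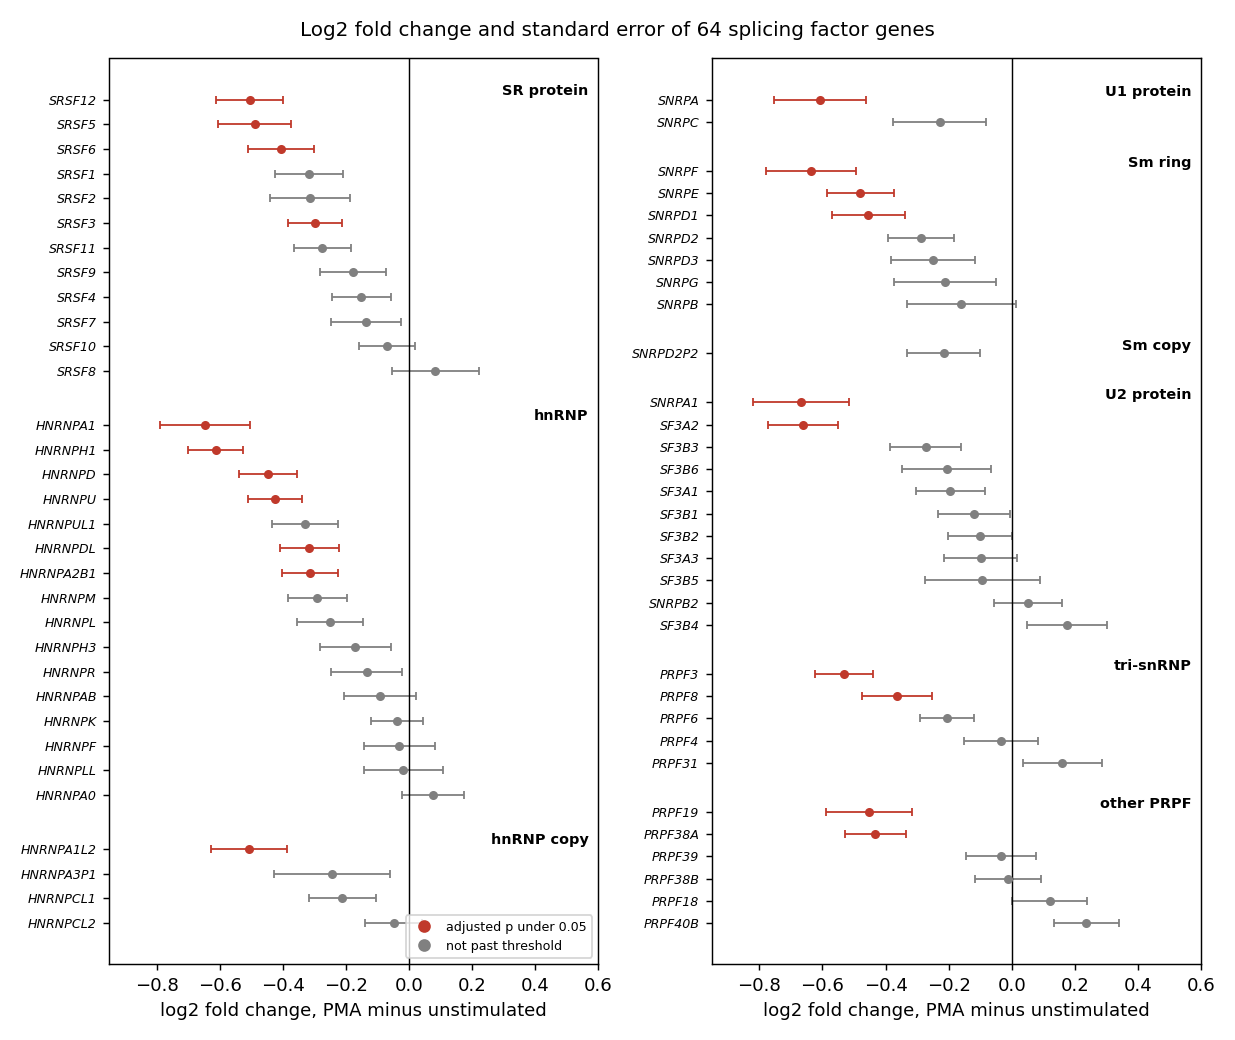
Log2 fold change, PMA minus unstimulated (horizontal axes), of each of the 64 genes by role, with bars for the standard error of the limma fit (n = 3 arrays per group). Red points passed an adjusted p of 0.05 and grey points did not, and every red point lies below 0, between −0.30 and −0.67.

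Of 16 hnRNP genes, leaving aside 4 copies, 6 fell and none rose, with a median of −0.27. The number was 4 without unstimulated replicate 1 and 4 or 5 without any other single array. HNRNPH1, which binds G-rich elements and regulates exons through them, had the lowest adjusted p of all 64 genes. It was at 10.37, 10.50 and 10.37 on PMA arrays, against 11.02, 10.98 and 11.07 on unstimulated arrays, a change of −0.61 ± 0.09 (adjusted p = 0.00177) that left 65.4%. HNRNPD (AUF1), which also binds AU-rich elements and promotes mRNA decay, was at 11.25, 11.21 and 11.40 in PMA cells and at 11.72, 11.71 and 11.78 in unstimulated cells (−0.45 ± 0.09, adjusted p = 0.00906). HNRNPU, the scaffold attachment factor SAF-A, was at 11.01, 11.08 and 11.06 in PMA cells and at 11.41, 11.47 and 11.55 in unstimulated cells (−0.43 ± 0.09, adjusted p = 0.00888). These 3 genes kept their call when any single array was left out, and for none of them was unstimulated replicate 1 the highest of its group.

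HNRNPA1, an abundant splicing repressor that counters SR proteins, was at 6.05, 5.72 and 5.50 on PMA arrays, against 6.48, 6.35 and 6.38 on unstimulated arrays (−0.65 ± 0.14, adjusted p = 0.0126). That probe set names HNRNPA1 alone, while others that name the gene also name its processed copies. HNRNPA1L2, a near copy of HNRNPA1 whose probes can share its signal, also fell (−0.51 ± 0.12, adjusted p = 0.0169), with 6.25, 6.09 and 6.46 on PMA arrays and 6.90, 6.70 and 6.72 on unstimulated arrays. Its call was lost without PMA replicate 1 or PMA replicate 2. HNRNPA2B1, which also sorts RNAs into exosomes, changed by −0.31 ± 0.09 (adjusted p = 0.0356), and HNRNPDL, a relative of HNRNPD, by −0.32 ± 0.09 (adjusted p = 0.0425). Both held their groups apart, and HNRNPA2B1 lost its call without any of 5 of the arrays and HNRNPDL without any of the 6.

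The other hnRNP genes did not pass. HNRNPK, a poly(C)-binding protein, was at 11.57, 11.57 and 11.62 in PMA cells and at 11.65, 11.57 and 11.65 in unstimulated cells (−0.04 ± 0.08, adjusted p = 0.804). HNRNPUL1 came nearest to the threshold among those that did not pass, with 10.48, 10.41 and 10.45 on PMA arrays against 10.96, 10.72 and 10.66 on unstimulated arrays (−0.33 ± 0.10, adjusted p = 0.0532). HNRNPM (−0.29 ± 0.09, adjusted p = 0.0557) and HNRNPL (−0.25 ± 0.11, adjusted p = 0.129) also had groups that did not overlap. For HNRNPA0, HNRNPAB, HNRNPF, HNRNPH3, HNRNPLL and HNRNPR the groups overlapped and changes ran from −0.17 to 0.08. HNRNPLL, which directs CD45 exon skipping in lymphocytes, was among them (−0.02 ± 0.13). The remaining copies HNRNPA3P1, HNRNPCL1 and HNRNPCL2 did not pass (−0.25, −0.21 and −0.05), and HNRNPCL2 lay below the lower quartile on every array.

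**Figure D3:**
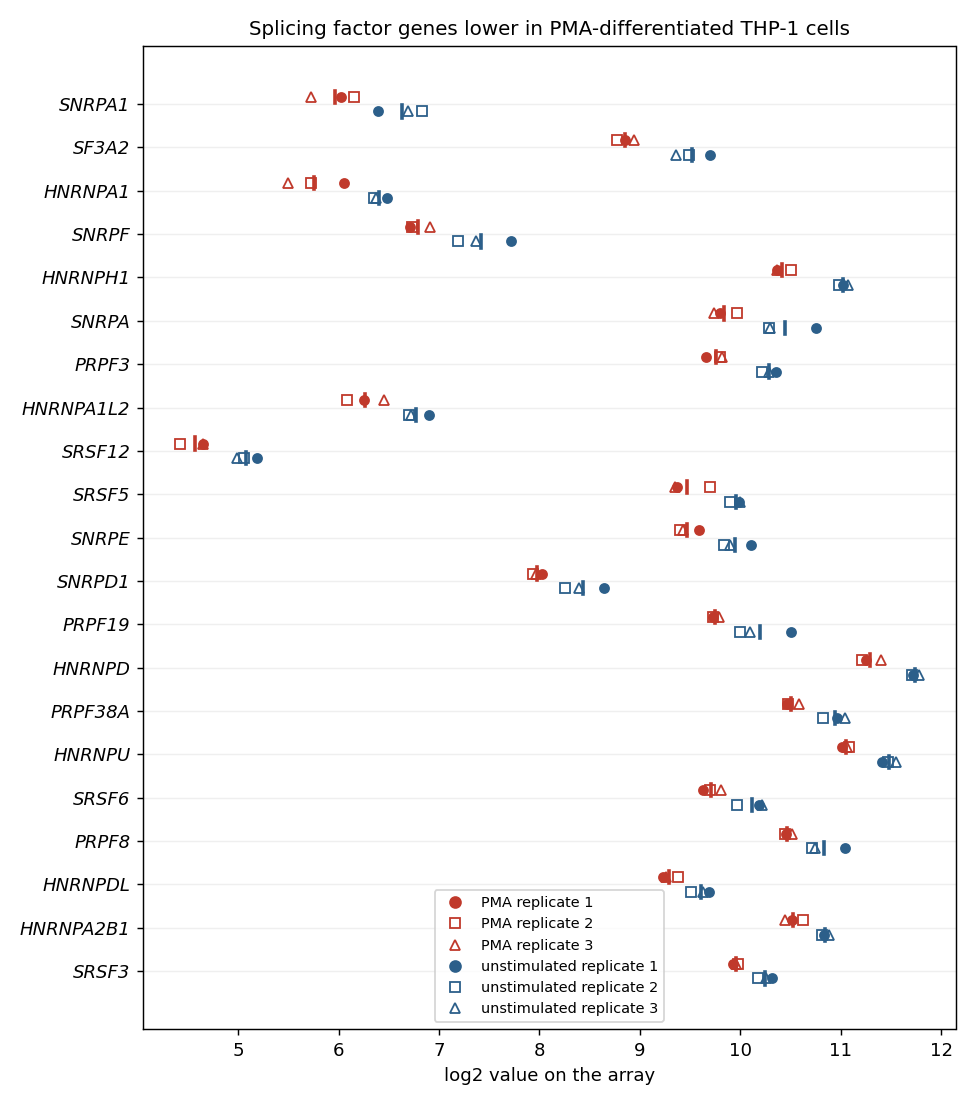
Log2 values on each array (horizontal axis) for the 21 genes that fell, with PMA arrays in red above unstimulated arrays in blue, 1 symbol per replicate and a bar at each group's mean. In all 21 rows the red symbols lie left of the blue ones, and unstimulated replicate 1 is the rightmost symbol in 13 of the 21 rows.

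Of the 7 ring genes measured, 3 fell and all 7 had a change below 0, with a median of −0.29. The number that fell was also 3 without unstimulated replicate 1, but it was 1 when PMA replicate 1 was left out and 2 when PMA replicate 2 or unstimulated replicate 3 was. SNRPF was at 6.71, 6.73 and 6.91 on PMA arrays, against 7.71, 7.19 and 7.36 on unstimulated arrays (−0.64 ± 0.14, adjusted p = 0.014, lost without PMA replicate 1). SNRPE was at 9.58, 9.40 and 9.42 in PMA cells and at 10.10, 9.84 and 9.90 in unstimulated cells (−0.48 ± 0.11, adjusted p = 0.0128). Its second probe set, with a lower mean, gave −0.36 ± 0.20 and did not pass, and with both averaged the gene lost its call. SNRPD1 was at 8.02, 7.94 and 7.97 in PMA cells and at 8.64, 8.26 and 8.39 in unstimulated cells (−0.45 ± 0.12, adjusted p = 0.0225, lost without either of PMA replicates 1 and 2 or without unstimulated replicate 3). In these genes unstimulated replicate 1 was the highest array. SNRPD2 came next, with 8.08, 8.22 and 8.24 on PMA arrays and 8.61, 8.45 and 8.34 on unstimulated arrays (−0.29 ± 0.10, adjusted p = 0.0807), and SNRPD3 also had separate groups (−0.25 ± 0.13, adjusted p = 0.226). SNRPB (−0.16 ± 0.17) and SNRPG (−0.21 ± 0.16) overlapped. The pseudogene SNRPD2P2 lay below the lower quartile on every array.

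Of the 2 genes of U1-specific proteins 1 fell, and the same number did without unstimulated replicate 1. SNRPA, which binds a loop of U1 RNA, was at 9.80, 9.97 and 9.74 in PMA cells and at 10.75, 10.29 and 10.29 in unstimulated cells. Its change of −0.61 ± 0.14 passed (adjusted p = 0.0173) and left 65.6%, though the call was lost without PMA replicate 1. SNRPC, which helps U1 recognise the 5′ splice site, changed by −0.23 ± 0.15 (adjusted p = 0.322), with groups that did not overlap.

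In the U2 snRNP 2 of 11 genes fell (18.2%) and 9 did not pass, with a median change of −0.12. The number was also 2 without unstimulated replicate 1 and 1 without either of the other unstimulated arrays. SNRPA1, which binds U2 RNA together with SNRPB2, was at 6.02, 6.15 and 5.72 on PMA arrays, against 6.39, 6.83 and 6.69 on unstimulated arrays (−0.67 ± 0.15, adjusted p = 0.0143). Here unstimulated replicate 1 was the lowest of its group, and the call was lost without either of the other unstimulated arrays. SF3A2, a subunit of the SF3A complex, was at 8.85, 8.77 and 8.94 in PMA cells and at 9.69, 9.49 and 9.36 in unstimulated cells (−0.66 ± 0.11, adjusted p = 0.00374). SF3A2 and HNRNPH1 were the 2 genes that kept their call under all 21 alternative settings. The partners of SF3A2 did not pass: SF3A1 was at 8.87, 8.75 and 8.85 in PMA cells and 9.21, 8.97 and 8.87 in unstimulated cells (−0.19 ± 0.11, adjusted p = 0.257). SF3A3 was at 10.50, 10.44 and 10.53 in PMA cells and 10.80, 10.42 and 10.54 in unstimulated cells (−0.10 ± 0.12, adjusted p = 0.618).

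None of the 6 SF3B genes passed in limma, where 1 was lower at an unadjusted p of 0.05, and their median change was −0.11. SF3B1, the branch point subunit that is recurrently mutated in myelodysplastic syndromes and is bound by several splicing inhibitors, was at 10.85, 11.01 and 11.13 in PMA cells and at 10.97, 11.12 and 11.25 in unstimulated cells. Its groups overlapped and its change was −0.12 ± 0.11 (adjusted p = 0.525). SF3B3 was at 10.14, 10.19 and 10.09 in PMA cells and at 10.63, 10.27 and 10.34 in unstimulated cells (−0.27 ± 0.11, adjusted p = 0.123), and it was the SF3B gene whose groups did not overlap. The others were SF3B6 (−0.21 ± 0.14), which contacts the branch point, SF3B2 (−0.10 ± 0.10), SF3B5 (−0.09 ± 0.18) and SF3B4 (0.17 ± 0.13). SNRPB2, the partner of SNRPA1, did not pass either (0.05 ± 0.11). With SE of this size, changes of about 0.2 were not resolved by 3 arrays per group.

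Of 5 tri-snRNP genes 2 fell, and 1 did without unstimulated replicate 1 or any other single array. PRPF3, a U4/U6 protein mutated in some forms of retinitis pigmentosa, was at 9.66, 9.80 and 9.82 on PMA arrays, against 10.36, 10.22 and 10.29 on unstimulated arrays. Its change of −0.53 ± 0.09 (adjusted p = 0.00434) was kept without any single array. PRPF8, the U5 protein at the centre of the spliceosome's active site, was at 10.45, 10.45 and 10.51 in PMA cells and at 11.04, 10.71 and 10.75 in unstimulated cells (−0.36 ± 0.11, adjusted p = 0.0451). It lay close to the threshold and lost its call without any of the 6 arrays. PRPF6, a bridge between U5 and U4/U6, had separate groups without passing (−0.21 ± 0.09, adjusted p = 0.122). PRPF4 (−0.03 ± 0.12), the partner of PRPF3, and PRPF31 (0.16 ± 0.13) overlapped.

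Of the 6 remaining PRPF genes 2 fell and none rose. The number was 1 without unstimulated replicate 1, PMA replicate 2 or PMA replicate 3. It was 0 with PMA replicate 1 or unstimulated replicate 3 left out. PRPF19, the ubiquitin ligase at the core of a complex that stabilises the activated spliceosome, was at 9.72, 9.73 and 9.79 in PMA cells and at 10.50, 10.00 and 10.10 in unstimulated cells (−0.45 ± 0.14, adjusted p = 0.0449). It lost its call without any array but unstimulated replicate 2, and its change without unstimulated replicate 1 was −0.30. PRPF38A, needed for activation of the spliceosome, was at 10.47, 10.47 and 10.59 in PMA cells and at 10.97, 10.82 and 11.04 in unstimulated cells (−0.43 ± 0.10, adjusted p = 0.0132, lost without PMA replicate 1 or unstimulated replicate 3). PRPF40B, a relative of a U1-associated yeast protein, was the single member with every PMA array above every unstimulated array. It stood at 6.51, 6.38 and 6.67 in PMA cells and at 6.36, 6.23 and 6.26 in unstimulated cells (0.24 ± 0.10, adjusted p = 0.142). PRPF18, a second-step factor, was also positive without passing (0.12 ± 0.12), and PRPF38B and PRPF39 lay at −0.01 and −0.03.

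Other genes of the splicing machinery were taken from 7 lists, 187 genes of which 172 were measured. Of these 35 fell (20.3%, against 13.2% of all genes) and 5 rose (2.91%, against 13.2%), with a median change of −0.12. Most of them lie at or above the median level of all genes, where 34 of 160 (21.2%) fell against a background of 18%. The share lower was thus near the background. The share higher was below it, with 5 of 160 (3.1%) against 19.5%. The numbers moved with single arrays and with scaling. Without unstimulated replicate 1, 24 fell (13.95%, against 12.5% of all genes) and 12 of the 172 rose, where 13.3% of all genes did. Without PMA replicate 1, 18 fell (10.5%, against 8.67%). With PMA replicate 2 or unstimulated replicate 3 left out, 16 fell (9.30%, against 9.54% and 9.09%). With arrays centred on medians 16 fell, which is again 9.30% and against 9.78% of all genes. In that fit 8 of the 172 rose, where 15.8% of all genes did. In these last 3 fits the share lower was near that of all genes, which was not matched for level. The list of SR-related proteins and SR protein kinases had 10 of 28 lower (35.7%) and none higher. In it TRA2B, an SR-like activator of exon inclusion, fell by 0.38 on the log2 scale (adjusted p = 0.0249). CLASRP fell by 0.52 (adjusted p = 0.011). It alone of these 10 genes kept its call without unstimulated replicate 3, where 9.09% of all genes were called lower. Only CLASRP and CLK2 of the 10 kept theirs without PMA replicate 1, where 8.67% of all genes were called lower. Of the 8 CLK, SRPK and DYRK kinases in the list, which phosphorylate SR proteins, 3 fell (37.5%, against 13.2% of all genes) and none rose. All 3 lost their call without unstimulated replicate 3. CLK2 (−0.37 ± 0.08, adjusted p = 0.0126) lost it without that array alone. CLK3 (−0.32 ± 0.09, adjusted p = 0.0281) lost it without any array but unstimulated replicate 1. DYRK1A (−0.32 ± 0.09, adjusted p = 0.0386) lost it without either of PMA replicates 1 and 2 or of unstimulated replicates 2 and 3. SRPK1 (0.04 ± 0.11), SRPK2, SRPK3, CLK1 (0.09 ± 0.11) and CLK4 overlapped between groups. Among 29 genes of the PRPF19 complex, the catalytic step and the helicases, 3 fell (10.3%) and 1 rose (3.45%), shares below those of all genes. The gene that rose was BCAS2 (0.43 ± 0.10, adjusted p = 0.0142), a core member of the PRPF19 complex. TRA2B lost its call without either of PMA replicates 1 and 2 or without unstimulated replicate 3, and BCAS2 without either of those PMA replicates or without unstimulated replicate 2.

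Of 43 splicing regulators that depend on tissue or stimulus 11 fell (25.6%) and 3 rose (6.98%). The largest changes among the 7 lists were here. MBNL1, a muscleblind protein that promotes adult splicing patterns, was at 11.23, 11.26 and 11.34 in PMA cells and at 12.23, 12.20 and 12.34 in unstimulated cells, a change of −0.98 ± 0.09 (adjusted p = 0.0002). MBNL3, of the same family, fell by 0.68 ± 0.16 (adjusted p = 0.0149), while MBNL2 was positive without passing (0.28 ± 0.14, adjusted p = 0.207). The polypyrimidine tract binding proteins fell too, PTBP2 by 0.90 ± 0.11 (adjusted p = 0.00106) and PTBP1 by 0.52 ± 0.12 (adjusted p = 0.0154). MBNL3 and PTBP1 lost their calls without PMA replicate 2. RBFOX2, which binds UGCAUG elements beside exons, rose. It stood at 8.36, 8.34 and 8.20 in PMA cells and at 7.39, 7.35 and 7.55 in unstimulated cells (0.87 ± 0.10, adjusted p = 0.00057). RBM38 (0.68 ± 0.12, adjusted p = 0.00537) rose as well, as did the STAR protein QKI (0.43 ± 0.11, adjusted p = 0.0273), whose call was lost without any of 4 arrays.

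Of 27 other snRNP and LSM genes 3 fell and none rose. The share lower was 11.1%, against 13.2% of all genes. SNRNP200, the U5 helicase that unwinds U4/U6, fell by 0.47 ± 0.09 (adjusted p = 0.00645), and the tri-snRNP cyclophilin PPIH by 0.61 ± 0.15 (adjusted p = 0.0179). SNRNP70, the U1-70K protein, changed by −0.26 ± 0.09 and did not pass (adjusted p = 0.0629). Of 16 branch point and 3′ splice site factors 3 fell (18.75%). U2AF1 (−0.41 ± 0.12, adjusted p = 0.034) was among them, lost without any array but unstimulated replicate 2. The branch point binding protein SF1 also fell (−0.37 ± 0.09, adjusted p = 0.0185), lost without either of PMA replicates 1 and 2 or without unstimulated replicate 2. U2AF2 did not pass (−0.21 ± 0.13, adjusted p = 0.283). Of 13 exon junction and export genes 3 fell (23.1%), THOC1 (−0.54 ± 0.10, adjusted p = 0.00611) with the lowest p. THOC1 kept its call without any single array. The others, ALYREF (adjusted p = 0.0468) and EIF4A3 (adjusted p = 0.0496), lost theirs when any 1 of the 6 arrays was left out. In the list of snRNP assembly and import 2 of 16 fell (12.5%) and 1 rose (6.25%), shares below those of all genes. Coilin COIL, the scaffold of Cajal bodies, fell by 0.56 ± 0.09 (adjusted p = 0.00318). CLNS1A fell by 0.44 ± 0.11 (adjusted p = 0.0187) and STRAP rose (0.41 ± 0.12, adjusted p = 0.0415). CLNS1A lost its call without PMA replicate 2 or unstimulated replicate 3, and STRAP without either of PMA replicates 1 and 2 or of unstimulated replicates 2 and 3. The Sm protein methyltransferase PRMT5 overlapped between groups (0.10 ± 0.21, adjusted p = 0.781).

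The number of splicing factors called depended on the setting more than their direction did, as the plot of calls by setting shows. Each count is read against the share of all genes called lower in the same fit. It was 9 without PMA replicate 1 (8.67%), 14 without PMA replicate 2 (9.54%), 16 without PMA replicate 3 (13.3%), 15 without unstimulated replicate 1 (12.5%), 16 without unstimulated replicate 2 (9.87%) and 11 without unstimulated replicate 3 (9.09%). None was called higher in these fits, where at least 9.37% of all genes were (9.71% without unstimulated replicate 2). In a gene-wise test without shared variance it was 9 (7.92% of all genes lower, 7.52% higher), and against a 1.2-fold change it was 2 (5.84% lower, 7.48% higher). With genes below the median level left out, 18 of 56 fell (19.1% lower, 20.4% higher).

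**Figure D4:**
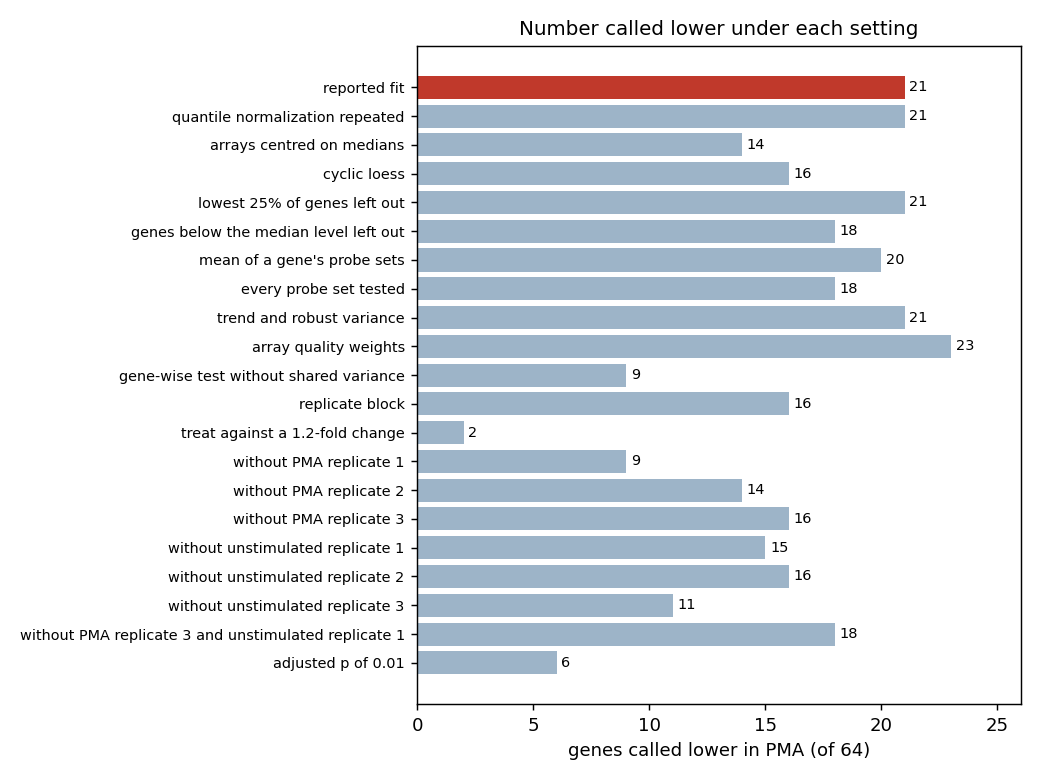
Number of the 64 splicing factor genes called lower in PMA (horizontal axis) in the reported fit (red bar) and under 20 alternative settings (blue bars). The count is 21 in the reported fit and runs from 2, against a 1.2-fold change, to 23, with array quality weights.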

How the data were processed

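Total RNA extracted with Trizol from THP-1 cells was labelled with biotin by the Affymetrix protocol, per the labels' protocols. The values the authors deposited are log2, with 1 value for each probe set on each array. RMA and Partek were used, per the submitters' processing notes, with versions not given in the sources used here. Quantile normalization within RMA pulls arrays to a common distribution, and its background step shrinks changes of dim probe sets. Of 33297 probe sets, 19460 carried 1 symbol in the platform annotation, updated by gene ID to GRCh38.p14 symbols (19429 matched); 1754 with several symbols and 12083 not named were not tested as genes.

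The groups were tested with limma 3.58.1 (R 4.3.3; lmFit, eBayes, a model of group alone, 7.71 degrees of freedom in total), and p-values were adjusted by Benjamini-Hochberg across 18417 genes. Standard errors of the fold changes had a median of 0.115 on the log2 scale, and 3 arrays per group limit the precision. The steps were tested on simulated data. By rule, genes with values on every array were, per symbol prefix, up to 4 past the threshold with the largest changes, the one with the highest mean and the largest change not past it; from each list of other splicing genes up to 3 in each direction, of which the text names part, and 10 fixed genes. HNRNPU, SNRPD1 and SRSF2, also given on every array, fall outside this rule and were chosen after their values were seen. The same holds for MBNL2 and the kinases CLK2, CLK3, CLK4, DYRK1A, SRPK2 and SRPK3. The members and lists were chosen with earlier results of these data known. Alternatives changed the scaling, filters, probe set rule, variance model, threshold and arrays used, 1 at a time. Figures were drawn with matplotlib 3.10.9.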

Additional observations from a re-analysis of the deposited data

How the results depend on the processing

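The median log2 fold change of the 64 genes stayed below 0 under all 21 alternatives, between −0.29 and −0.14. The count of 21 genes lower was 16 with the replicate number as a block (replicate block), 9 in the gene-wise test without shared variance, 6 at an adjusted p of 0.01, and 2 when tested against a 1.2-fold change; cyclic loess gave 1 gene higher. Leaving out 1 array, or PMA replicate 3 and unstimulated replicate 1 together, gave 9 to 18 lower and 0 higher, and 8 of the 21 (HNRNPA1, HNRNPD, HNRNPH1, HNRNPU, PRPF3, SF3A2, SNRPE and SRSF12) kept their call without any single array. Arrays of different groups with the same number did not all deviate together (correlations 0.18, −0.02 and 0.05, against −0.15 to 0.11 for different numbers), so the numbers were not taken to pair samples. None of the 21 genes changed sign under any alternative run. Of the other splicing genes, 5 higher and 35 lower became 8 and 16 with arrays centred on medians, 3 and 20 in the gene-wise test, 2 and 4 against a 1.2-fold change, and 2 and 11 at an adjusted p of 0.01. The number higher was 10 after cyclic loess (15.9% of all genes higher) and 11 with array weights (16.6%). Leaving out arrays as above gave 2 to 13 higher and 16 to 27 lower. The count of all genes called was 4854, against 2843 in the gene-wise test, 2453 against a 1.2-fold change, 2824 at an adjusted p of 0.01 and 3323 to 6310 with arrays left out. The gene-wise test has fewer degrees of freedom and the threshold settings ask for more by construction; for the others the cause was not tested.

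Genes near 0 changed sign without passing. With arrays centred on medians these were HNRNPCL2 (0.038), HNRNPF (0.055), HNRNPK (0.048), HNRNPLL (0.068), PRPF38B (0.073), PRPF39 (0.051), PRPF4 (0.051) and SRSF10 (0.016); after cyclic loess HNRNPF (0.035), HNRNPK (0.053), HNRNPLL (0.042), PRPF38B (0.051), PRPF39 (0.037) and PRPF4 (0.031); with quantile normalization repeated HNRNPCL2 (0.0016) and HNRNPK (0.028); and with array quality weights CLK1 (−0.0029), PRPF4 (0.037), SF3B5 (0.035) and SNRPB (0.0025). With arrays left out, the signs turned within these ranges: CLK1 (−0.0229 to 0.178), HNRNPAB (−0.151 to 0.0244), HNRNPCL2 (−0.0899 to 0.00345), HNRNPF (−0.129 to 0.0393), HNRNPLL (−0.182 to 0.0696), PRMT5 (−0.0414 to 0.462), PRPF38B (−0.0852 to 0.0546), PRPF39 (−0.114 to 0.0591), PRPF4 (−0.115 to 0.119), SF3A3 (−0.184 to 0.00957), SF3B5 (−0.221 to 0.130), SF3B6 (−0.309 to 0.00860), SNRPB (−0.256 to 0.136), SNRPB2 (−0.0340 to 0.136), SNRPG (−0.349 to 0.0360), SRPK1 (−0.0503 to 0.169) and SRSF8 (−0.0148 to 0.217).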

Other observations

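Of the prefix genes in the RefSeq table, 9 protein-coding genes had no probe set of their own, and 20 probe sets that name a prefix gene together with another gene were not used above. Their values come from a limma fit over every probe set. The 4 probe sets that name HNRNPA1 with its copies all fell, with changes between −0.63 and −0.54 (adjusted p = 0.0032 to 0.00556). The first of them was at 11.44, 11.41 and 11.56 in PMA cells and at 12.07, 12.085 and 12.14 in unstimulated cells (−0.63 ± 0.09). Their level is that of HNRNPA1 and its copies together. The 3 probe sets shared by HNRNPA3 and its pseudogene HNRNPA3P1 fell by 0.37 each (adjusted p = 0.0382 to 0.0429), and the 2 shared by HNRNPC and HNRNPC-like genes did not pass (−0.19 and −0.15).

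The probe set of SNURF and SNRPN, an imprinted pair of which SNRPN encodes an Sm protein close to SNRPB, had the largest change among these 20. It stood at 8.06, 7.998 and 8.02 in PMA cells and at 8.85, 8.76 and 8.90 in unstimulated cells, a change of −0.81 ± 0.09 (adjusted p = 0.000986). Probe sets for HNRNPH2 with its readthrough transcript (−0.09 ± 0.11) and for HNRNPUL2 (0.09 ± 0.10) overlapped between groups.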
